A study of Mus musculus with 6 samples.

Results

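The astrocyte endfoot genes described here are 10 genes named by their symbols, *Aqp4*, *Gfap*, *Slc1a2*, *Slc1a3*, *Gja1*, *Gjb6*, *Kcnj10*, *Mlc1*, *Hepacam* and *Aldh1l1*, out of 23183 gene symbols with a value in every library. All 10 were among the 14247 genes that passed the filter of a mean of at least 1 FPKM (fragments per kilobase of transcript, scaled to the mapped total of the library) over the 6 libraries. The libraries were made from cerebral microvessels of 3 WT mice and 3 TEKCRIF1 KO mice on a C57BL/6 background, with a library for each mouse and no treatment. Both groups carried a Cre recombinase driven by Tek, a promoter active in endothelial cells and also in some blood-forming cells. In the WT mice *Crif1* was intact on both alleles, and in the KO mice both alleles were floxed, so the deletion was not directed at astrocytes. The age and sex of these mice are not given in the sources used here. The microvessels were obtained by homogenization, centrifugation in dextran and collection on a cell strainer, a preparation that keeps the parts of neighboring cells that adhere to the vessel wall.

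Astrocytes wrap brain vessels with flattened processes called endfeet, which lie on the vascular basement membrane. Endfeet are known for a dense array of the water channel aquaporin-4, for the potassium channel Kir4.1, for gap junctions that couple neighboring endfeet, and for a complex of MLC1 and GlialCAM at their contacts. Astrocyte processes also carry the sodium-dependent glutamate transporters that clear transmitter from the extracellular space. Most of these genes are little expressed by endothelial cells, so that their transcripts in a microvessel preparation come largely from astrocyte material that stays with the vessels, but the connexin genes are also expressed by fibroblasts of the meninges and *Gja1* by cells of the vessel wall. In such bulk RNA, a smaller amount of astrocyte material and less RNA of a gene per astrocyte cannot be told apart.

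*Crif1*, listed as *Gadd45gip1* and encoding a protein of the mitochondrial ribosome, averaged 16.9 ± 1.76 FPKM in the WT group and 9.57 ± 1.78 FPKM in the KO group (SD, n = 3 each), and the groups did not overlap (exact two-sided permutation test, p = 0.1). The estimated depth was 6400000 to 11800000 fragments per library, so that 3 fragments on a 1-kb transcript amounted to 0.255 to 0.467 FPKM. Every endfoot gene lay far above this floor, and the smallest estimate for any of them was 230.0 fragments, for *Hepacam* in KO 2, where counting error alone would be 6.6%. The libraries differed in other respects that touch the results below. Relative to the mean of all libraries, expression was higher for longer transcripts in KO 2 (Spearman correlation 0.289, across 13726 genes that are no independent replicates) and lower in KO 1 (−0.296). The correlation with GC content was 0.084, 0.313 and 0.151 in the WT mice and −0.137, −0.247 and −0.028 in the KO mice, each in replicate order. This trend thus did not overlap between the groups. The summed level of 5 choroid plexus markers was 8777 FPKM in KO 1 and 10528 FPKM in KO 3, against 2942 FPKM in KO 2 and 2847 to 3312 FPKM in the WT mice.

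All 10 endfoot genes had a lower mean in KO mice than in WT mice, by 10% for *Aldh1l1* to 35.6% for *Gjb6*. The median log2 fold change of the 10 genes was −0.46, and that of all genes tested was −0.006. A log2 fold change below 0 was found for 50.8% of all genes tested. The genes *Gfap*, *Gja1* and *Gjb6* (3 of the 10) had an unadjusted limma p below 0.05, all lower in KO mice, against 3.11% of all genes tested that were lower at this threshold. None of the 10 was higher in KO mice at this threshold (0, against 2.77% of all genes tested). After Benjamini-Hochberg adjustment over all genes, 0 of the 10 and 0% of all genes tested remained below 0.05, with a lowest limma adjusted p of 0.841 both over the endfoot genes and over all genes, so no single difference given below passed the adjusted threshold. Every KO library lay below every WT library for 2 of the 10 genes, *Gfap* and *Gja1*, against 5.7% of all genes tested. Every KO library lay above every WT library for 0 of the 10, against 5.37% of all genes tested. With KO 2 as the only KO library, which leaves out both libraries high in choroid plexus markers, 8 of the 10 were lower, with a median of −0.35, and *Aqp4* and *Slc1a2* were higher. Without WT 1, 9 of the 10 were lower, with a median of −0.28, and 0 of the 10 had an unadjusted limma p below 0.05, as against 349 lower and 314 higher of the 14247 genes tested, a share at which 0 of 10 is no result about the endfoot genes. The plot of FPKM by library shows these values.

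**Figure D1:**
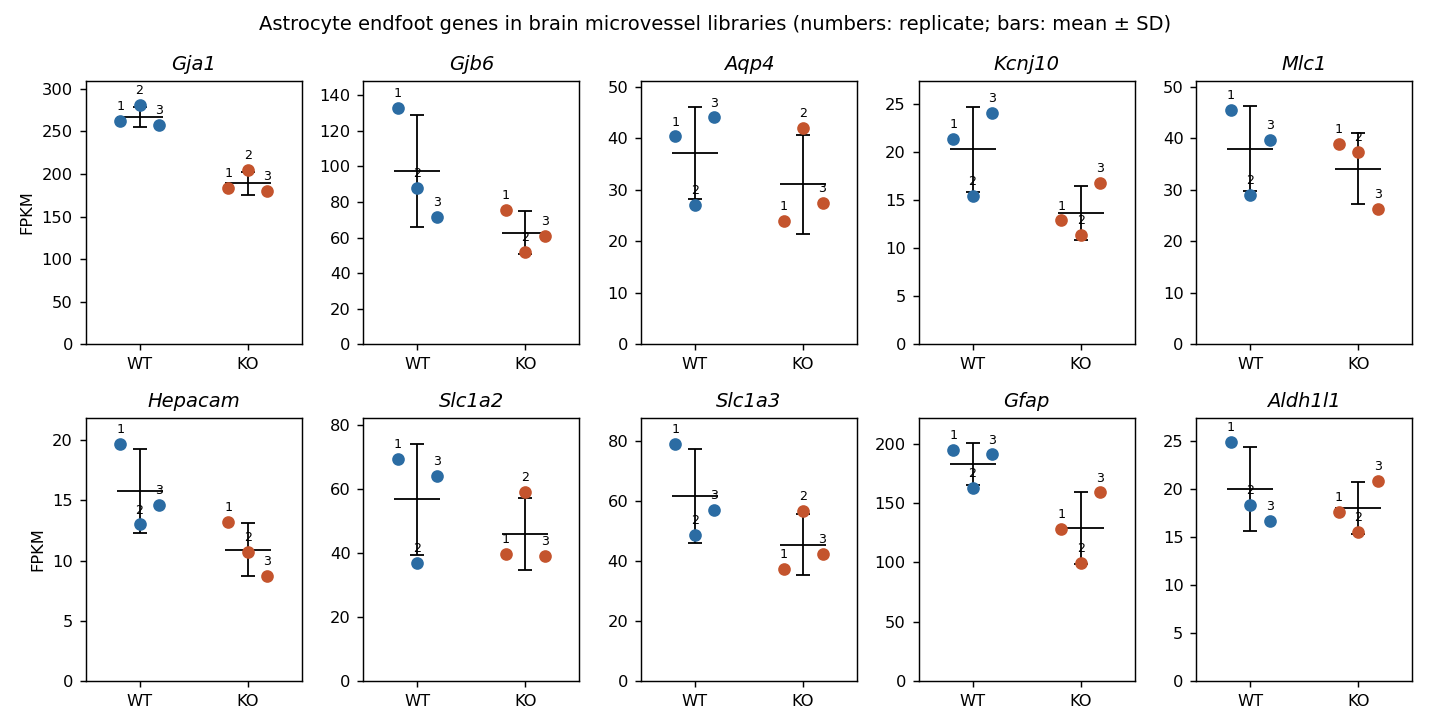
FPKM (y axis, from 0) of each of the 10 astrocyte endfoot genes in the 3 WT and 3 KO libraries (points, numbered by replicate), with the mean and SD of each group as bars. The groups are separate for *Gja1* and *Gfap* and overlap for the other genes, and in *Aqp4*, *Slc1a2* and *Slc1a3* KO 2 lies above the other KO libraries.

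Gap junctions between astrocytes are built mainly of connexin 43, encoded by *Gja1*, and connexin 30, encoded by *Gjb6*. *Gja1* (chr10:56377330-56402513, plus strand, GRCm38) had 262, 281 and 258 FPKM in the 3 WT mice, in the order of their replicate numbers, and 184, 205 and 179.8 FPKM in the 3 KO mice. The lowest WT library was well above the highest KO library, and the spread within each group was small, with a coefficient of variation of 4.47% for WT and 7.01% for KO. The log2 fold change of *Gja1* was −0.50 ± 0.20 (standard error, SE; limma p = 0.0338, adjusted p = 0.841; p = 0.1 in an exact permutation test on both sides, the lowest that 3 against 3 allows). *Gjb6* (chr14:57123303-57133611, minus strand) had 133, 88.0 and 71.8 FPKM in the WT mice and 75.4, 51.9 and 61.0 FPKM in the KO mice. WT 1 was far above the other libraries and KO 1 lay above WT 3, so the groups overlapped. For *Gjb6* the log2 fold change was −0.60 ± 0.26 (SE; limma p = 0.0446, adjusted p = 0.841; exact permutation p = 0.2), the largest of the 10 in size, and without WT 1 it was −0.35.

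Aquaporin-4, encoded by *Aqp4*, moves water across the endfoot membrane, and Kir4.1, encoded by *Kcnj10*, carries potassium across it. *Aqp4* (chr18:15389496-15410982, minus strand) had 40.4, 27.1 and 44.1 FPKM in the WT mice and 23.9, 42.0 and 27.5 FPKM in the KO mice. WT 2 was as low as KO 3, and KO 2 was as high as the other WT libraries. For *Aqp4* the log2 fold change was −0.26 ± 0.27 (SE; limma p = 0.353, adjusted p = 0.919; exact permutation p = 0.5), a difference within the spread of the libraries. It ranged from −0.49 without KO 2 to −0.09 without KO 1. *Kcnj10* (chr1:172341210-172374085, plus strand) had 21.4, 15.5 and 24.1 FPKM in the WT mice and 12.9, 11.4 and 16.8 FPKM in the KO mice, and only WT 2 and KO 3 overlapped. Its log2 fold change was −0.53 ± 0.24 (SE; limma p = 0.05003, just above the threshold, adjusted p = 0.841; exact permutation p = 0.2). KO 2 thus held the highest *Aqp4* and the lowest *Kcnj10* among the KO mice.

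MLC1 is a membrane protein of astrocyte contacts, and GlialCAM, the product of *Hepacam*, is the adhesion molecule that brings it there. *Mlc1* (chr15:88955884-88979007, minus strand) had 45.5, 29.0 and 39.6 FPKM in the WT mice and 38.9, 37.3 and 26.2 FPKM in the KO mice. The values were interleaved, and the log2 fold change was −0.15 ± 0.24 (SE; limma p = 0.546, adjusted p = 0.952; exact permutation p = 0.5). Leaving out 1 library moved it from −0.33 without WT 2 to 0.03 without KO 3, so its direction was not stable. *Hepacam* (chr9:37367351-37386575, plus strand) had 19.7, 13 and 14.6 FPKM in the WT mice and 13.2, 10.7 and 8.74 FPKM in the KO mice. The groups touched at WT 2 and KO 1, and the log2 fold change was −0.49 ± 0.24 (SE; limma p = 0.0636, adjusted p = 0.841; exact permutation p = 0.2). The ratio of *Mlc1* to *Hepacam* within a library was 2.31, 2.23 and 2.71 in the WT mice and 2.95, 3.49 and 2.99 in the KO mice. This ratio was higher in every KO library than in every WT library, with a mean of 2.42 ± 0.256 in the WT group and 3.14 ± 0.299 in the KO group (n = 3 mice per group, ± SD; exact permutation p = 0.1, and 0.3 adjusted over 6 ratios).

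*Slc1a2* and *Slc1a3* encode the glutamate transporters GLT-1 and GLAST. *Slc1a2* (chr2:102658659-102790784, plus strand) had 69.5, 36.9 and 64.0 FPKM in the WT mice and 39.8, 59.0 and 39.1 FPKM in the KO mice. WT 2 was the lowest of all libraries and KO 2 stood near WT 3, so the order of the libraries did not follow genotype. The log2 fold change was −0.27 ± 0.28 (SE; limma p = 0.344, adjusted p = 0.919; exact permutation p = 0.4), and ranged from −0.55 without WT 2 to −0.11 without WT 1. *Slc1a3* (chr15:8634124-8710764, minus strand) had 79.0, 48.7 and 56.9 FPKM in the WT mice and 37.3, 56.6 and 42.2 FPKM in the KO mice, and KO 2 was again the highest of its group. Its log2 fold change was −0.42 ± 0.24 (SE; limma p = 0.111, adjusted p = 0.841; exact permutation p = 0.2). Leaving out 1 library moved it both ways, to −0.59 without KO 2 (limma adjusted p = 0.328) and −0.58 without WT 2 (limma adjusted p = 1), and to −0.23 without WT 1 (limma adjusted p = 0.98) and −0.30 without KO 1 (limma adjusted p = 1). The 2 transporters were at similar levels within a library, with a ratio of *Slc1a2* to *Slc1a3* of 0.921 ± 0.187 in the WT group and 1.01 ± 0.0746 in the KO group (n = 3 mice per group, ± SD; exact permutation p = 0.6, and 0.8 adjusted over 6 ratios).

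*Gfap* encodes the intermediate filament of astrocytes, which is known to increase when they become reactive, and *Aldh1l1* encodes a folate enzyme used as a general astrocyte marker. *Gfap* (chr11:102887336-102900912, minus strand) had 195, 163 and 191 FPKM in the WT mice and 128, 99.2 and 159 FPKM in the KO mice. The highest KO library was just under the lowest WT library. For *Gfap* the log2 fold change was −0.52 ± 0.23 (SE; limma p = 0.0464, adjusted p = 0.841; exact permutation p = 0.1). *Aldh1l1* (chr6:90486427-90600203, plus strand) had 24.9, 18.3 and 16.7 FPKM in the WT mice and 17.6, 15.5 and 20.8 FPKM in the KO mice, and KO 3 exceeded WT 2 and WT 3. Its log2 fold change of −0.13 ± 0.22 (SE; limma p = 0.558, adjusted p = 0.953; exact permutation p = 0.6) was the smallest of the 10 in size. Leaving out 1 library moved it from −0.25 without WT 3 to 0.03 without WT 1, so its direction was not stable. Relative to *Aldh1l1* in the same library, *Gfap* was lower in every KO mouse than in every WT mouse, with ratios of 7.81, 8.91 and 11.4 in the WT mice and 7.28, 6.39 and 7.66 in the KO mice (exact permutation p = 0.1, and 0.3 adjusted over 6 ratios). For *Gja1* the ratio to *Aldh1l1* overlapped, at 13.8 ± 2.82 in WT mice and 10.8 ± 2.29 in KO mice (n = 3 mice per group, ± SD; exact permutation p = 0.2, and 0.4 adjusted over 6 ratios).

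The upstream sequences of the 3 genes with an unadjusted p under 0.05 are shown so that their composition can be compared. Each run holds the 250 bases before the RefSeq start of the gene, 5′ to 3′ on the strand of the gene, in GRCm38.p6. *Gja1* lies at chr10:56377050-56377299 on the plus strand, *Gjb6* at chr14:57133612-57133861 on the minus strand and *Gfap* at chr11:102897201-102897450 on the minus strand. Both strands were searched for 4 motifs. The half-site of the NFI factors was written as TTGGCA, and the STAT motif as TTCNNNGAA. The motif of the SOX factors was written as AACAAT, and the TATA box of core promoters as TATAAA. As these windows hold no match they are printed in lower case only. The *Gfap* start used by RefSeq lies inside the gene as drawn above.
Gja1: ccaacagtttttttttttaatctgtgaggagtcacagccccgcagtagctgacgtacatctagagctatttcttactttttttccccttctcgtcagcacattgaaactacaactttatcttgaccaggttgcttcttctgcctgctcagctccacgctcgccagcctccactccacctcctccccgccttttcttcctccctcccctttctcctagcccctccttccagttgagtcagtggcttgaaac
Gjb6: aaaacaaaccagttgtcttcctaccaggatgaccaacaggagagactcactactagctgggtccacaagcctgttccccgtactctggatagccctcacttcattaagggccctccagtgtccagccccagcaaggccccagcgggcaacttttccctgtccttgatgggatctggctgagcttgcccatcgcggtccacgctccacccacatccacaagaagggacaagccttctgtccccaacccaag
Gfap: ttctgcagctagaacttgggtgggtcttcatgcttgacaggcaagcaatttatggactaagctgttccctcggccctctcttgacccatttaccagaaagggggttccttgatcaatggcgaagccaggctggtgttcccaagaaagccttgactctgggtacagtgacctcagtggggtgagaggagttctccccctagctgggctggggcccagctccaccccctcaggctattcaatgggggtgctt
The GC content of these windows was 50.0% for *Gja1*, 56.8% for *Gjb6* and 55.6% for *Gfap*. Upstream sequences were held for 9 of the 10 endfoot genes. Among these 9, the NFI half-site was present for *Hepacam*, and the STAT motif and the TATA box were present for *Slc1a3*, at places that did not overlap. Of 32851 upstream windows of all genes, 12.3% held the NFI half-site, 7.02% the STAT motif, 9.42% the SOX motif and 12.4% the TATA box. A match or its absence describes these letters only.

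FPKM is a value per length, so levels can also be set side by side between genes. In WT mice *Gja1* was the most abundant of the 10, with 267 ± 12 FPKM, a level above that of 98.3% of the genes tested. *Gfap* followed with 183 ± 17.4 FPKM and *Gjb6* with 97.5 ± 31.6 FPKM, and these 3 did not overlap each other over the WT libraries. *Slc1a3* with 61.5 ± 15.7 FPKM and *Slc1a2* with 56.8 ± 17.4 FPKM came next, then *Mlc1* with 38.0 ± 8.31 FPKM and *Aqp4* with 37.2 ± 8.95 FPKM. From *Gjb6* down to *Aqp4*, each gene overlapped its neighbor in the order. *Kcnj10* with 20.3 ± 4.41 FPKM, *Aldh1l1* with 20 ± 4.37 FPKM and *Hepacam* with 15.8 ± 3.47 FPKM formed the lowest group, apart from *Aqp4* and overlapping each other (SD, n = 3 for each gene). In KO mice *Slc1a2* and *Slc1a3* changed places, as did *Kcnj10* and *Aldh1l1*, and these are neighbors whose ranges overlapped. The breaks in the order, after *Gja1*, *Gfap* and *Aqp4*, were the same in both groups.

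The libraries were then compared across the 10 genes, with each gene expressed as log2(FPKM + 1) relative to its own mean over the 6 libraries. WT 1 was above that mean for all 10 genes and was the highest of the 6 libraries for 7 of them. WT 3 was above it for 8 genes. WT 2 was above it for 4 genes and was the lowest WT library for 7 of the 10. The median of these values over the genes was 0.38, −0.06 and 0.18 for the WT mice and −0.27, −0.19 and −0.31 for the KO mice, each in replicate order, so the medians of the groups did not overlap. A lower value in a KO library than in a WT library was found in 75 of the 90 comparisons of a gene in a WT and a KO library (83.3%), against a mean of 50.3% of all genes tested. These comparisons reuse the same 6 libraries, and neither they nor the genes are independent replicates. Between WT 1 or WT 3 and a KO library, 8 to 10 of the 10 genes were higher in the WT library. Between WT 2 and a KO library, only 6 or 7 were. The heat map of centered values shows these differences between genes.

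**Figure D2:**
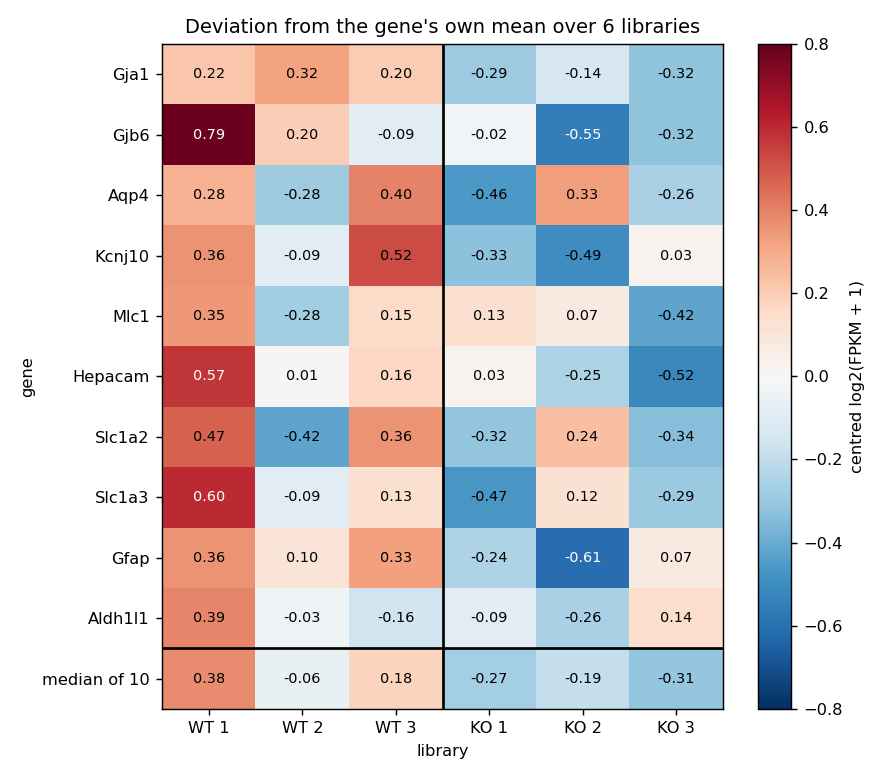
Centered log2(FPKM + 1) (color scale and printed values) of each endfoot gene (rows) in each library (columns), with the median over the 10 genes in the bottom row. WT 1 is positive in all 10 rows, and KO 2 ranges from −0.61 for *Gfap* to 0.33 for *Aqp4*.

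In KO 2 the genes were divided. With the values as deposited, it was the highest KO library for *Aqp4*, *Slc1a2*, *Slc1a3* and *Gja1*, and the lowest of all 6 libraries for *Gfap*, *Gjb6*, *Kcnj10* and *Aldh1l1*. The longest annotated transcripts of the first 4 genes had a GC content of 41.4% to 45.7%, and those of the other 6 endfoot genes had 49.6% to 55.5%. The transcript lengths were 5054, 11595, 4435 and 3889 bases for the first 4 and 2105 to 5407 bases for the other 6. The lengths thus overlapped and the GC contents did not, and the part of the trends of KO 2 in this split was not tested. After each library was corrected for both trends, KO 2 was the highest KO library for these 4 genes and also for *Mlc1*. It was still the lowest library for *Gfap* and *Kcnj10*, but for *Gjb6* it was level with KO 3 (−0.40 in both), and for *Aldh1l1* it was above WT 3 (−0.17 and −0.19). In KO 2 the correction moved *Slc1a2* from 0.24 to −0.05 and *Aqp4* from 0.33 to 0.12, relative to the mean of the gene. The ratio of *Aqp4* to *Kcnj10* was 1.89, 1.75 and 1.83 in the WT mice and 1.85 and 1.63 in KO 1 and KO 3, but 3.69 in KO 2. The ratio of *Gja1* to *Gjb6* ranged from 1.98 to 3.60 in the WT mice and from 2.44 to 3.94 in the KO mice (exact permutation p = 0.8).

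The difference between the groups was also examined against other reference points, as shown in the plot of 4 scalings. With the correction for GC content and length, all 10 genes stayed lower in KO mice, with a median log2 fold change of −0.41. *Gja1* then had a log2 fold change of −0.64 (limma adjusted p = 0.968), and that of *Aldh1l1* was −0.01. When each library was scaled to the mean level of 28 other astrocyte genes, an alternative chosen after the data were seen, all 10 genes remained lower, with a median of −0.36 beside a median of 0.092 over all genes, and 0 of the 10 had an unadjusted p under 0.05, where 143 of all 14247 genes tested were lower and 531 higher. When each library was scaled to the mean level of 10 endothelial markers, the median of all genes moved to 0.229. *Mlc1* (0.09) and *Aldh1l1* (0.10) were then higher in KO mice, the median of the 10 was −0.22, and 0 of the 10 had an unadjusted p under 0.05, where 61 of all 14247 genes tested were lower and 1083 higher at this threshold. Of the endothelial markers used for this scaling, 7 of 10 were themselves lower in KO mice with the values as deposited. The 28 other astrocyte genes used as a reference also differed between the groups, with 19 lower and 9 higher in KO mice. Their log2 fold changes ran from −0.80 for *Agt* to 0.91 for *Slc39a12*.

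**Figure D3:**
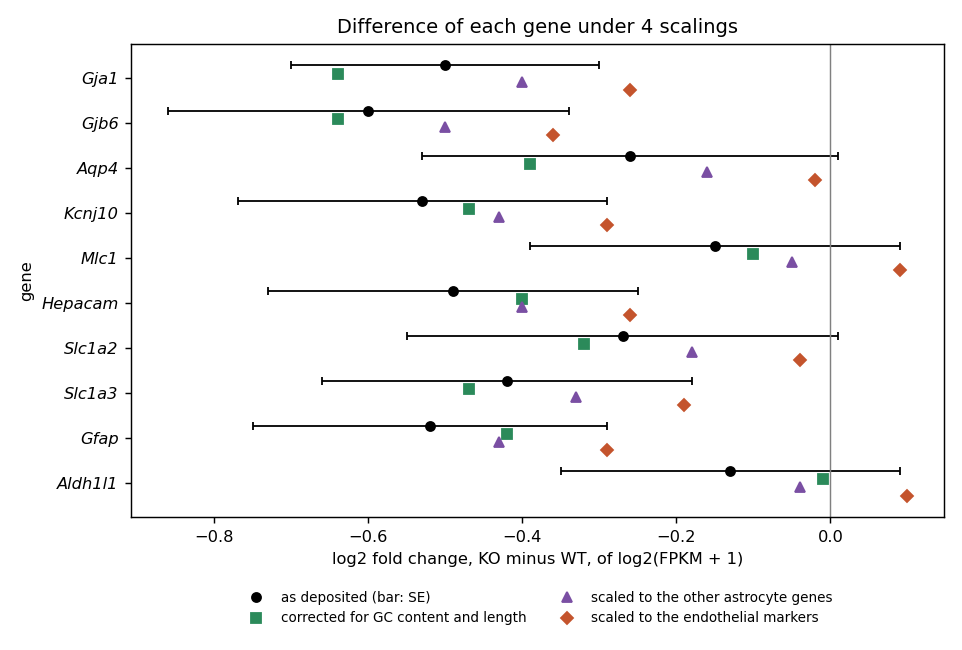
Log2 fold change of log2(FPKM + 1), KO minus WT (x axis), of each endfoot gene (rows) with the values as deposited (circles, bars give the standard error) and under 3 other scalings. All 10 genes lie below 0 except under scaling to the endothelial markers, where *Mlc1* and *Aldh1l1* lie at 0.09 and 0.10.

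A broader list of 30 astrocyte genes was examined, of which 28 were tested. The median log2 fold change was −0.15, with 19 genes lower and 9 higher in KO mice, 1 of them lower and 2 higher at an unadjusted limma p under 0.05, beside 3.11% and 2.77% of all genes tested, so that the count of lower genes was near that over all genes. *Agt*, which encodes angiotensinogen, had 129.6, 138 and 60.4 FPKM in the WT mice and 75.1, 41.7 and 64.1 FPKM in the KO mice, with overlap at WT 3 (log2 fold change −0.80, limma p = 0.0392, adjusted p = 0.841, exact permutation p = 0.3). *Slc7a10*, a neutral amino acid transporter, had 20.6, 19.1 and 24.9 FPKM in the WT mice and 43.1, 22.4 and 64.6 FPKM in the KO mice (log2 fold change 0.86, limma p = 0.027, adjusted p = 0.841, exact permutation p = 0.2). *Slc39a12*, a zinc transporter, had 15.2, 10.8 and 17.0 FPKM in the WT mice and 27.3, 16.2 and 45.9 FPKM in the KO mice (log2 fold change 0.91, limma p = 0.0232, adjusted p = 0.841, exact permutation p = 0.2). Both transporters were high in KO 1 and KO 3 and within or near the WT range in KO 2, the same libraries in which the choroid plexus markers were high and low, and the part of choroid plexus material in these values was not tested. The summed level of the broader list ranged from 2759.7 to 3995 FPKM in the WT group and from 2389.9 to 3419.5 FPKM in the KO group, so it overlapped. That of the 10 endfoot genes ranged from 720.4 to 890.4 FPKM in WT mice and from 571 to 588 FPKM in KO mice, and the largest values in it were those of *Gja1* and *Gfap*. These were the 2 genes whose groups did not overlap, and *Aqp4*, *Slc1a2*, *Slc1a3* and *Mlc1* were higher in KO 2 than in WT 2. The separation of the sum thus does not hold for each of the 10 genes.

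Among 12 genes known to increase in reactive astrocytes, 11 were tested, and 9 were lower and 2 higher in KO mice, with a median log2 fold change of −0.21. None had an unadjusted p under 0.05 (0 of 11, limma), which beside 3.11% lower and 2.77% higher over all genes tested is no result about these genes. *Vim*, the filament partner of *Gfap*, averaged 774 ± 142 FPKM in the WT group and 743 ± 248 FPKM in the KO group (n = 3 mice per group, ± SD; exact permutation p = 1), so it did not share the separation of *Gfap*. Which cells of the preparation the transcripts of *Vim* and the other genes of this list came from was not tested. The extremes were *Osmr*, the oncostatin M receptor, at −0.50 on the log2 scale (limma p = 0.0759, exact permutation p = 0.2), and *Steap4*, a metalloreductase, with 0.80 (limma p = 0.0633, exact permutation p = 0.3).

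Aquaporin-4 and Kir4.1 are held at the endfoot by the dystrophin-associated complex, which binds laminin and agrin of the basement membrane. Of 16 genes of this complex and its matrix ligands, 8 were lower and 8 higher in KO mice, with a median log2 fold change of 0.01. At an unadjusted limma p under 0.05, 2 matrix ligands were lower and 1 membrane subunit was higher, beside 3.11% lower and 2.77% higher over all genes tested. *Lama2*, the laminin α2 chain, had 12.5, 11.7 and 10.2 FPKM in the WT mice and 7.78, 8.07 and 7.19 FPKM in the KO mice (log2 fold change −0.52, limma p = 0.0299, adjusted p = 0.841, exact permutation p = 0.1). *Lamc1*, the laminin γ1 chain, had 71.2, 60.7 and 62.4 FPKM in the WT mice and 43.0, 44.7 and 54.8 FPKM in the KO mice (log2 fold change −0.44, limma p = 0.0437, adjusted p = 0.841, exact permutation p = 0.1). Neither laminin gene overlapped between the groups, as was the case for 5.7% of all genes tested with KO below WT and 5.37% with KO above. *Sgcb*, which encodes β-sarcoglycan, had 6.61, 8.27 and 8.80 FPKM in the WT mice and 10.8, 17.8 and 11.3 FPKM in the KO mice, also without overlap (log2 fold change 0.66, limma p = 0.0235, adjusted p = 0.841, exact permutation p = 0.1). *Dag1*, the dystroglycan that links the complex to laminin, averaged 62.5 ± 5.85 FPKM in the WT group and 55.8 ± 14.1 FPKM in the KO group (n = 3 mice per group, ± SD; exact permutation p = 0.5).

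Relatives of the endfoot genes in their own families were examined for comparison, in a list that also held *Clcn2*, a chloride channel that binds GlialCAM and belongs to none of these families. Of the 19 genes listed 16 were tested, with 10 lower and 6 higher in KO mice and a median log2 fold change of −0.14, and none had an unadjusted p under 0.05 (0 of 16, limma), a count near the 3.11% lower and 2.77% higher over all genes tested. *Gjb2*, which encodes connexin 26, had 125, 97.8 and 67.2 FPKM in the WT mice and 77.8, 49.4 and 68.1 FPKM in the KO mice (log2 fold change −0.54, limma p = 0.0713, exact permutation p = 0.3). WT 1 was the highest and KO 2 the lowest library, the same ends as for *Gjb6*. *Aqp1*, an aquaporin of the choroid plexus epithelium, had 52.7, 62.8 and 56.6 FPKM in the WT mice and 126, 45.0 and 196 FPKM in the KO mice (log2 fold change 0.85, limma p = 0.0787, exact permutation p = 0.4). It was high in KO 1 and KO 3 only, as were the choroid plexus markers.

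**Figure D4:**
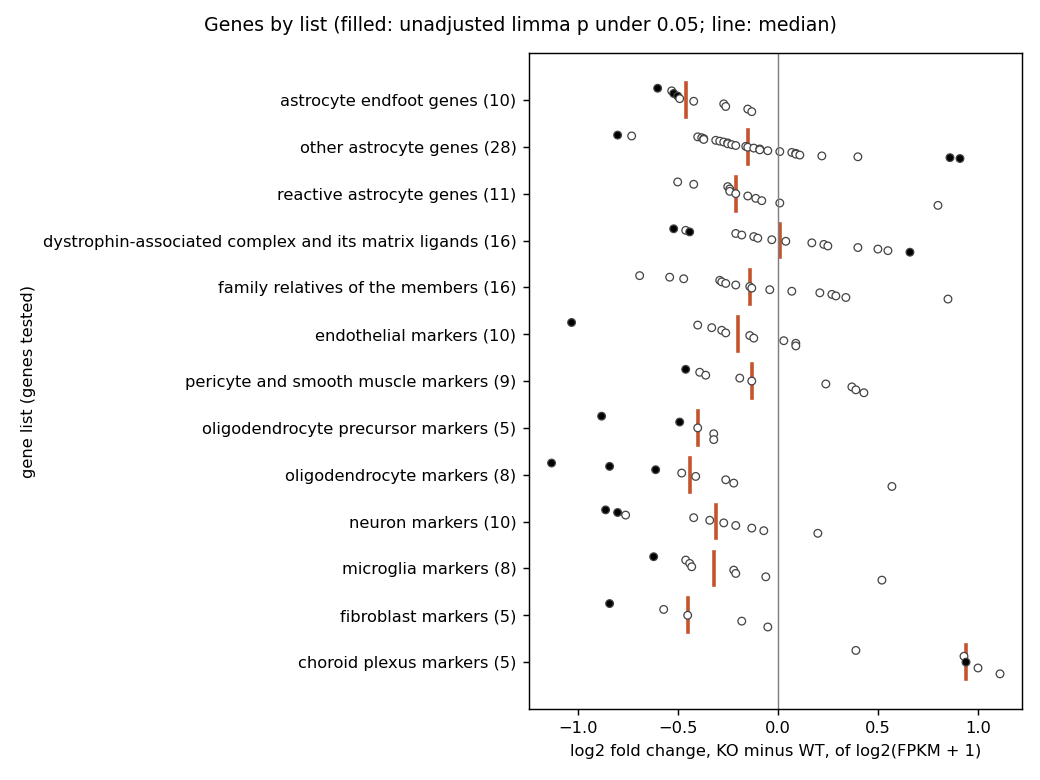
Log2 fold change of log2(FPKM + 1), KO minus WT (x axis), of each tested gene of the endfoot list and of 12 other lists (rows), with filled points for an unadjusted limma p under 0.05 and a line at the median. All endfoot genes lie below 0, with a median of −0.46, and the choroid plexus markers lie above 0, with a median of 0.94.

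Markers of other cells in the preparation were summed in each library and set beside the endfoot genes. The 10 endothelial markers summed to 1049 to 1488 FPKM in the WT group and 931 to 1265 FPKM in the KO group, and 7 of the 10 were lower in KO mice, with a median log2 fold change of −0.20. The lowest of them was *Cdh5*, which encodes VE-cadherin (log2 fold change −1.03), and the pericyte and smooth muscle markers had a median of −0.13, with 5 of 9 lower. The median was −0.40 for the oligodendrocyte precursor markers (5 of 5 lower), −0.44 for the oligodendrocyte markers (7 of 8 lower) and −0.31 for the neuron markers (9 of 10 lower). It was −0.32 for the microglia markers (7 of 8 lower) and −0.45 for the fibroblast markers (5 of 5 lower). In the sums, the precursor markers (76.4 to 82.6 FPKM in the WT group, 53.7 to 61.9 FPKM in the KO group) and the fibroblast markers (1312 to 2010.1 FPKM and 894 to 1241 FPKM) did not overlap between the groups. The sums of the neuron, oligodendrocyte and microglia markers overlapped. At an unadjusted limma p under 0.05, 2 of 10 neuron, 3 of 8 oligodendrocyte, 2 of 5 precursor and 1 of 8 microglia markers were lower, beside 3.11% of all genes tested. None of these markers passed the adjusted threshold. Lower medians in KO mice were thus shared by markers of several parenchymal cell types, and their part in the difference of the endfoot genes was not tested.

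**Figure D5:**
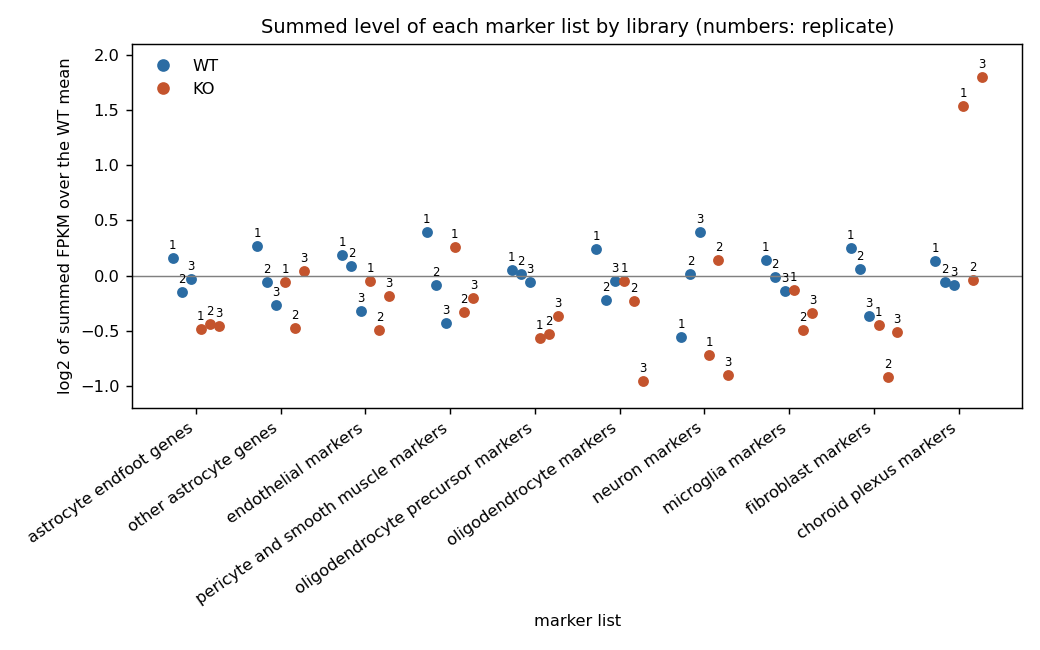
Summed FPKM of each marker list (x axis) in each library, as log2 of its ratio to the WT mean (y axis), with points numbered by replicate. The 3 KO libraries lie close together below the WT libraries for the endfoot genes, a sum in which *Gja1* and *Gfap* hold the largest values. KO 1 and KO 3 lie far above all others for the choroid plexus markers.

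The genes outside the list whose profile was most like that of the endfoot genes were found by the root-mean-square distance between centered log2(FPKM + 1) values and the median profile of the 10 genes over the 6 libraries. The 10 nearest were *Zbtb7c*, *Peg13*, *Rrs1*, *Zbtb16*, *Triobp*, *Tspan13*, *B4gat1*, *Slc25a18*, *Mtmr12* and *Plekhm1*, at distances of 0.056 to 0.102. *Zbtb7c*, the nearest, had 6.43, 4.54 and 5.65 FPKM in the WT mice and 3.53, 3.89 and 3.58 FPKM in the KO mice. *Slc25a18*, a mitochondrial glutamate carrier, had 17.0, 12.2 and 15.2 FPKM in the WT mice and 11.1, 9.53 and 10.1 FPKM in the KO mice. None of the 10 belonged to the broader astrocyte list. That list held only 28 of the 14237 other genes tested, a share at which 0 of 10 is no result about astrocyte genes. The endfoot genes themselves lay farther from their own median profile, at 0.169 for *Gja1*, the nearest, to 0.288 for *Gjb6*, with a median of 0.238, and 194 of the 14237 other genes tested (1.36%) were nearer to it than *Gja1*. The median profile itself had a root mean square of 0.252, which is the distance at which a gene with the same value in all libraries would lie, and *Aqp4* (0.266) and *Gjb6* were farther from it than that.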

How the data were processed

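RNA of cerebral microvessels from 3 WT and 3 TEKCRIF1 KO mice was sequenced, with a library for each mouse. The authors prepared directional libraries, trimmed the paired reads, mapped them with TopHat (mm10 per the labels) and deposited FPKM values. The counting tool, the annotation and any normalization between libraries are not given in the sources used here. The 14247 genes whose mean reached 1 FPKM were fitted on the log2(FPKM + 1) scale by limma 3.58.1 (R 4.3.3, trended variance), without added scaling, so that a fold change on this scale understates changes of low genes. The Benjamini-Hochberg adjustment covered all of them. For single values, mice were permuted exactly between the groups (two-sided), and 3 against 3 cannot give a p below 0.1. P-values measure the spread between these mice. Depth was estimated from the steps between low FPKM values of genes with a single GENCODE M21 transcript (GRCm38), and floors and fragment estimates cover counting error only. Lengths, GC contents and positions came from the same annotation, with a length for 22148 symbols, and upstream sequences from RefSeq (GRCm38.p6). Named genes were the 10 endfoot genes, *Crif1*, genes of the 4 lists for astrocytes, reactive astrocytes, the dystrophin-associated complex and family relatives with an unadjusted p under 0.05 or the highest or lowest log2 fold change, and the 10 genes with the nearest profiles. *Agt*, *Slc39a12*, *Lama2*, *Sgcb*, *Osmr*, *Steap4* and *Aqp1* were extremes of their lists, and 1 further extreme is not reported here. *Vim*, *Dag1*, *Gjb2* and *Cdh5* were named after their values were seen. The endfoot genes, the lists and the tests were chosen with earlier results of these data known. The alternatives tried were another pseudocount, filter, scaling or variance model, a replicate block, a correction for GC content and length, and leaving out libraries. Analysis used Python 3.11.15 with pandas 2.3.3, and motifs were searched on both strands.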

Additional observations from a re-analysis of the deposited data

How the results depend on the processing

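The median log2 fold change of the endfoot genes (−0.46) stayed negative under all alternatives and from −0.56 to −0.28 when single libraries were left out, while scaling to the endothelial markers gave −0.22. The number of endfoot genes lower in KO mice was 9 or 10 with a library left out, and 8 both with endothelial scaling and with KO 2 as the only KO library. The number with an unadjusted limma p under 0.05 (3) was less stable. It was 1 with median scaling (798 of all 14247 genes) or without the trended variance (795), 0 with scaling to the endothelial markers or to the other astrocyte genes, and 0 (without WT 1) to 2 with a library left out, in fits with fewer mice. Which genes passed also differed, with *Slc1a3* and *Gja1* without KO 2 and *Gfap* and *Kcnj10* without KO 3. None of the endfoot genes had an adjusted p under 0.05 in any alternative (0), the smallest being 0.2 without KO 2. The log2 fold change changed sign for *Aldh1l1* without WT 1 (0.03, against −0.25 without WT 3) and with endothelial scaling (0.10), for *Mlc1* without KO 3 (0.03, against −0.33 without WT 2) and with endothelial scaling (0.09), and for *Aqp4* (0.20) and *Slc1a2* (0.10) with KO 2 as the only KO library, a choice made after seeing the data in which that mouse was assumed to vary like the WT mice. The median of the other astrocyte genes changed sign with endothelial scaling (0.08) and ranged from −0.30 to −0.03 with a library left out. Over all genes, 838 had an unadjusted p under 0.05 (443 lower and 395 higher in KO mice), against 450 to 1871 with a library left out (450 without WT 2, 510 without KO 1 and 1871 without KO 2) and 1825 with KO 2 as the only KO library. With scaling to the endothelial markers 61 were lower and 1083 higher, and with scaling to the other astrocyte genes 143 and 531. The cause of these shifts was not tested. No pairing of the mice by replicate number was seen. The correlation of deviations was 0.037, 0.027 and 0.002 for the same-numbered pairs and −0.073 to 0.046 for the others. With 3 mice per group this check cannot exclude a pairing. The mouse numbers in the file headers differed from these replicate numbers for 4 of the 6 libraries, so that the block rests on the numbers of the titles. A replicate block gave 871 genes with an unadjusted p under 0.05, 2 of them endfoot genes (*Gjb6* and *Kcnj10*), and left the median at −0.46. Of 180 values for single endfoot genes over the alternatives, 137 kept their direction and side of the threshold.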
